A study of Mus musculus with 7 samples.

Results

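The genes described here encode proteins of the extracellular matrix or take part in cell adhesion, and they were followed in testes in which the insulator protein CTCF had been inactivated in male germ cells. A gene was included when its row in the authors' deposited array table, in the class Coding or Complex, carried a Gene Ontology cellular component term naming the extracellular matrix, a basement membrane or collagen, or a biological process term naming cell adhesion. Genes with an immune or inflammatory process term and genes whose symbol starts with *Adam*, *Mmp*, *Timp* or *Serpin* were left out, and a row was named by the first symbol it lists. This rule found 114 genes among the 3997 coding genes of the table.

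The study asked what CTCF contributes to spermatogenesis, and the array experiment compared RNA from 3 wild-type and 4 *Ctcf*-cKO mice, each hybridized to its own mouse transcriptome array. The *Ctcf*-cKO mice carried the *Stra8-iCre* transgene together with 1 floxed and 1 already excised *Ctcf* allele (f/Δ). Mice called wild-type were their littermates with *Ctcf* alleles f/f, wt/f or wt/wt, and which of these an array came from is not given by the labels. All were adult mice of a narrow age range, on a background the methods write as C56BL/6J. The *Stra8* promoter drives the recombinase in germ cells about to enter meiosis, so Sertoli cells, Leydig cells and the cells of the tubule wall were not its targets and kept the floxed allele beside the excised one. Loss of CTCF in germ cells, the excised allele in all other cells and the transgene itself cannot be told apart in this comparison. RNA was prepared from seminiferous tubules after the tunica albuginea had been taken off, whereas the sample titles name testes. Whether interstitial tissue was removed is not stated, and the Leydig cell markers given below had signal in both genotypes.

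The wall of a seminiferous tubule consists of a basement membrane of laminins, type IV collagen, nidogen and heparan sulfate proteoglycans, surrounded by peritubular myoid cells and collagen fibrils. Sertoli cells rest on this membrane through integrins, and neighbouring Sertoli cells are sealed to each other by claudins, junctional adhesion molecules and cadherins, which form the blood-testis barrier. Germ cells are held by Sertoli cells through nectins, cadherins and integrin-based contacts, and sperm carry their own set of adhesion proteins for the binding and fusion with the oocyte.

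The deposited table gives for each transcript cluster the authors' bi-weight average of the log2 signal over the mice of each genotype, and it holds 0 columns of single arrays. Values below are therefore the authors' 2 averages and their difference, *Ctcf*-cKO minus wild-type, on the log2 scale, where a difference of 1.00 is a linear fold of 2. No spread between mice, error or test could be computed from them, and the number of arrays limits their precision. Because the authors' filter had asked for a linear fold of 2 and a p of 0.05, each gene in the table differed between the genotypes by construction, and what the table leaves to describe is the direction and the size. For a gene absent from this filtered table there is no value to report, and its absence does not show equal expression in both genotypes. *Ctcf* itself has 0 rows, so the targeted gene could not be checked in these values.

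Sequences before the transcription starts of 4 of these genes are printed first, as examples of the windows that were searched for motifs. The genes were picked for their roles after their values had been seen, and their motifs do not stand for the whole group, since TATAAA was found in 5 of 67 higher and the AP-1 motif in 1 of 12 lower promoters. The windows cover the 250 bases before the RefSeq start in GRCm38.p6 and are written from 5′ to 3′ on the coding strand, with capitals marking each searched motif on either strand. *Ogn*, the gene with the largest difference, has matches to TATAAA that overlap on both strands and lie at the end of the window away from the start (chr13:49607765-49608014, plus strand). *Cldn11*, a tight junction gene of Sertoli cells, has 2 CCAAT matches and 1 match to the inner part of the CTCF motif (chr3:31149670-31149919, plus strand). *Lamb1*, a laminin chain, has 1 CCAAT match, 2 GC box matches and 1 match to the CTCF motif, which overlaps a GC box (chr12:31265043-31265292, plus strand). *Spam1*, a sperm surface gene that was lower in *Ctcf*-cKO, has 1 AP-1 match and 0 CpG dinucleotides in this window (chr6:24790938-24791187, plus strand).
Ogn: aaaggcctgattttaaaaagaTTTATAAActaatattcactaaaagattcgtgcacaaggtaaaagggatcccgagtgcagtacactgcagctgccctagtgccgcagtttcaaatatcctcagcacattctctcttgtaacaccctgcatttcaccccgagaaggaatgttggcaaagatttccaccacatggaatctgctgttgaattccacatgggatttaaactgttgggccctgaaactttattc
Cldn11: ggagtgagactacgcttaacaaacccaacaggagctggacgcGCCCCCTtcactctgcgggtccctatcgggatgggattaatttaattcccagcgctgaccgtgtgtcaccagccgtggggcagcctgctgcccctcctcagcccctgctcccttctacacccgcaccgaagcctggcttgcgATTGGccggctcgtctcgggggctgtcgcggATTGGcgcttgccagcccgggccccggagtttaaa
Lamb1: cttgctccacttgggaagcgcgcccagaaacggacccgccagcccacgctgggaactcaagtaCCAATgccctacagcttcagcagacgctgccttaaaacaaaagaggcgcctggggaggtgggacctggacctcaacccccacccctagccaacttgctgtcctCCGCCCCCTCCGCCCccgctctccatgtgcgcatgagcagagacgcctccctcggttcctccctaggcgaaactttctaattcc
Spam1: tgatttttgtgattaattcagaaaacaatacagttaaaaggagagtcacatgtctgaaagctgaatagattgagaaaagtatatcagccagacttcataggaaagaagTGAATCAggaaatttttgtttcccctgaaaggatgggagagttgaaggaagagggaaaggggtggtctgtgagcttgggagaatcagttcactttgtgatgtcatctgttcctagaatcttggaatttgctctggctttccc

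Of the 114 matrix and adhesion genes, 94 were higher and 20 were lower in *Ctcf*-cKO than in wild-type. The higher genes made up 82.5% of them, whereas 38.7% of all 3997 coding genes of the table were higher and 61.3% were lower. This direction was not particular to the group. Over all coding genes, 138 were higher and 24 lower with the term extracellular space, and 75 and 16 with cell surface. The term endoplasmic reticulum had 153 and 44. The other way went cytoskeleton with 68 and 134, and the unspecific term cellular_component with 237 and 1073. The median difference was 1.30 for the matrix and adhesion genes, against -1.11 for all coding genes of the table and -1.12 for the 3883 coding genes outside the group. This contrast was one of direction more than of size, since the median was 1.44 among the 94 higher genes and 1.33 among all higher coding genes, and -1.23 among the 20 lower genes and -1.29 among all lower coding genes. Differences of the higher genes ran from 1.00 to 2.54 with quartiles of 1.17 and 1.79, and those of the lower genes from -1.71 to -1.03. A linear fold of 3 was passed by 35 higher genes, or 30.7% of the group, where 10.3% of all coding genes were higher by that much, and by 3 lower genes, where 7.98% of all coding genes were lower by that much. In RNA from a tissue of many cell types, fewer cells of a type and less RNA per cell cannot be told apart. The same holds for more cells and more RNA per cell. Signals are relative to the other RNA on an array, so a gain of a transcript and a loss of RNA from other cells cannot be told apart either.

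**Figure D1:**
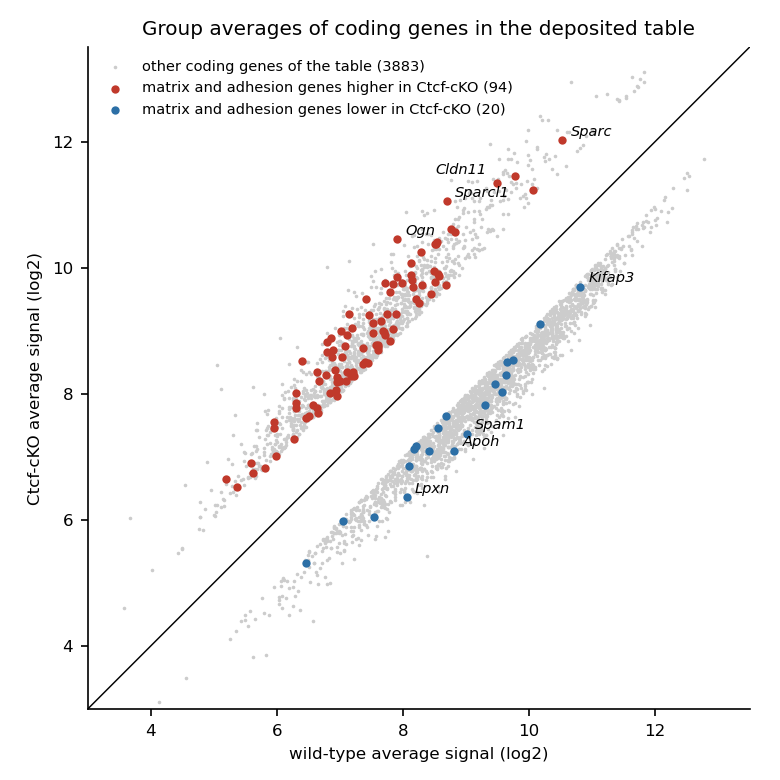
Authors' average log2 signal in wild-type (x axis, 3 mice) and *Ctcf*-cKO (y axis, 4 mice) for the coding genes of the deposited table, with the 94 higher matrix and adhesion genes in red, the 20 lower ones in blue and the 3883 other coding genes in grey; the line marks equal averages. The empty band along the line is the authors' filter on fold, and most matrix and adhesion genes lie above it while most other genes lie below.

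Marker genes of the somatic cell types of the testis were on the same side as most matrix and adhesion genes. Of 12 Sertoli cell markers, 10 had a row (*Sox9*, *Wt1*, *Gata4*, *Amhr2*, *Dhh*, *Fshr*, *Trf*, *Inha*, *Clu* and *Kitl*) and all 10 were higher, with a median difference of 1.61 and a summed linear signal of 5016 in wild-type against 14858 in *Ctcf*-cKO. The 7 of 8 Leydig cell markers with a row (*Star*, *Cyp11a1*, *Cyp17a1*, *Hsd3b1*, *Hsd3b6*, *Hsd17b3* and *Lhcgr*) were also higher, with a median of 2.15 and summed signals of 7713 and 28755. For fibroblasts or stromal cells 4 of 7 markers were higher (*Pdgfra*, *Dcn*, *Tcf21* and *Cd34*; summed signal 914 and 3169), for macrophages 5 of 10 (*Cd68*, *Csf1r*, *Mrc1*, *C1qb* and *Lyz2*; 839 and 2630) and for endothelial cells 2 of 10 (*Cdh5* and *Kdr*; 208 and 454). Peritubular myoid cell markers were mixed, with *Acta2*, *Myh11* and *Tagln* higher and *Actg2* lower, and their summed signal was 3357 in wild-type against 4018 in *Ctcf*-cKO. *Actg2* gave most of the wild-type sum, and the 3 other markers alone summed to 1207 and 3001. Germ cell markers were on the other side except for 1. The 8 of 10 primary spermatocyte markers with a row (*Ccna1*, *Dmc1*, *Hormad1*, *Meiob*, *Piwil1*, *Spo11*, *Sycp1* and *Sycp2*) were all lower, with summed signals of 7450 and 2928. So were the 10 of 10 round spermatid markers (*Acr*, *Acrv1*, *Catsper3*, *Hook1*, *Spaca1*, *Spata16*, *Spem1*, *Sun5*, *Tssk6* and *Zpbp*), with summed signals of 16649 and 7320. The 2 of 10 elongating spermatid markers with a row (*Akap4* and *Prm3*) were also lower, with summed signals of 3398 and 1671. Of 8 spermatogonium markers only *Kit* had a row, higher by 2.28, and 1 gene does not show the direction of spermatogonia. The part of these cell types in the differences below was not tested. Without the 4 genes of the group that are on these marker lists (*Kitl*, *Trf*, *Dcn* and *Cdh5*), 90 genes were higher and 20 were lower. This count does not address the part of cell types, because other genes expressed in those cells stay in the group.

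Genes annotated to the matrix were nearly all higher. Of the 52 genes with a matrix component term, 47 were higher and 5 lower, with a median difference of 1.46. All 13 genes with a basement membrane term and all 7 with a collagen term were higher, with medians of 1.44 and 1.19. A term does not make a protein part of the matrix. The 52 include *Hsd17b12*, a hydroxysteroid dehydrogenase gene, and of the 7 only *Col1a2* and *Col6a1* encode collagen chains. The 62 genes that carried a cell adhesion term alone were more divided, with 47 higher and 15 lower and a median of 1.21. The 15 genes with both kinds of term held 14 higher genes and 1 lower gene, *Comp*. Among the 9 genes annotated to homophilic adhesion, in which a protein binds its own kind on the next cell, 5 were higher and 4 were lower. The higher ones include *2610005L07Rik*, described as a cadherin 11 pseudogene. The lower ones include *Pcdhac1*, whose row lists several genes.

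For laminins and proteins that link them into the basement membrane, 9 of 30 listed genes had a row and all 9 were higher, by 1.14 to 2.03. Laminins are trimers of an alpha, a beta and a gamma chain, and chains of all 3 kinds were among them. *Lamb2*, the beta 2 chain, averaged 8.13 in wild-type against 10.07 in *Ctcf*-cKO, a difference of 1.94. *Lamb1*, the beta 1 chain whose promoter is printed above, averaged 6.88 and 8.58, a difference of 1.70. The alpha chain genes *Lama1* (7.66 and 9.16) and *Lama2* (7.68 and 8.99) were higher by 1.50 and 1.31. The gamma chain genes *Lamc1* (6.93 and 8.37) and *Lamc3* (7.70 and 8.98) were higher by 1.44 and 1.28. The largest difference of this list was that of *Ntn4*, which encodes the laminin-binding netrin-4 and averaged 6.86 and 8.89, a difference of 2.03. *Sparc*, which encodes a collagen-binding glycoprotein of basement membranes, averaged 10.53 and 12.02, and *Smoc1*, a related calcium-binding glycoprotein gene, 7.60 and 8.74. The 7 genes of the table whose annotation names the laminin N-terminal domain were all in the group and all higher.

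Collagen genes were few. Of 8 listed basement membrane collagen genes 0 had a row, and of 11 fibrillar and 25 other collagen genes 1 each had a row. *Col1a2*, a chain of the fibrillar type I collagen, averaged 7.40 in wild-type against 8.50 in *Ctcf*-cKO, and *Col6a1*, a chain of the beaded-filament type VI collagen, 7.36 and 8.48, so that they were higher by 1.10 and 1.12. The role lists hold no list for collagen synthesis, and the next 4 genes were named after their values had been seen. *Crtap*, part of a complex that hydroxylates prolines of procollagen, averaged 8.83 and 10.56, a difference of 1.73. *Pcolce*, which enhances the cutting of procollagen ends, averaged 8.20 and 9.50, and *P4ha1*, a prolyl 4-hydroxylase subunit needed for a stable triple helix, 7.84 and 9.03. The collagen receptor kinase gene *Ddr2* averaged 6.58 and 7.82, a difference of 1.24.

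Proteoglycans held the largest difference of all 114 genes. Of 37 listed proteoglycan and hyaluronan-linked genes 8 had a row, 7 higher and 1 lower, with a median of 1.79; *Sdc4*, a syndecan gene without the terms of the rule, was the 1 outside the group. *Ogn*, which encodes the small leucine-rich protein osteoglycin, averaged 7.91 in wild-type against 10.45 in *Ctcf*-cKO, a difference of 2.54 or a linear fold of 5.82. *Dcn*, the collagen fibril-binding decorin, averaged 8.76 and 10.62, and *Bgn*, the related biglycan, 8.13 and 9.88, differences of 1.86 and 1.75. These small leucine-rich proteins coat collagen fibrils and bind growth factors. *Prelp*, another of them, averaged 7.71 and 8.94, and *Omd*, osteomodulin, 5.59 and 6.90. *Gpc4*, a glypican that carries heparan sulfate at the cell surface, averaged 7.79 and 9.61, a difference of 1.82. The lower gene of this list was *Epyc*, the epiphycan gene best known from cartilage, at 8.42 in wild-type against 7.09 in *Ctcf*-cKO, a difference of -1.33.

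Glycoproteins of the matrix that modulate cells rather than build fibres showed the same direction with 1 exception. Of 32 listed fibronectin and matricellular genes, 7 had a row, 6 of them higher. *Sparcl1*, which encodes hevin, a relative of SPARC, averaged 8.70 and 11.06, a difference of 2.36 that was the largest after that of *Ogn*. *Ecm2* (5.95 and 7.56), *Spon1* (7.03 and 8.58) and *Mgp* (7.75 and 9.26), the last an inhibitor of calcification, were higher by 1.61, 1.55 and 1.51. *Ecm1* and *Tgfbi* were higher by 1.32 and 1.19. *Comp*, a pentameric thrombospondin of cartilage and tendon, stood on the other side at 9.63 in wild-type against 8.30 in *Ctcf*-cKO. In the list of elastic fibre and microfibril genes, 4 of 27 had a row and all 4 were higher. *Efemp1*, fibulin-3, averaged 7.14 and 9.27, a difference of 2.13, and *Ltbp1*, which stores latent TGF-beta in the matrix, 6.89 and 8.69, a difference of 1.80. *Mfap4* and *Fbln5*, both of which take part in elastic fibre assembly, were higher by 1.17 and 1.11.

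**Figure D2:**
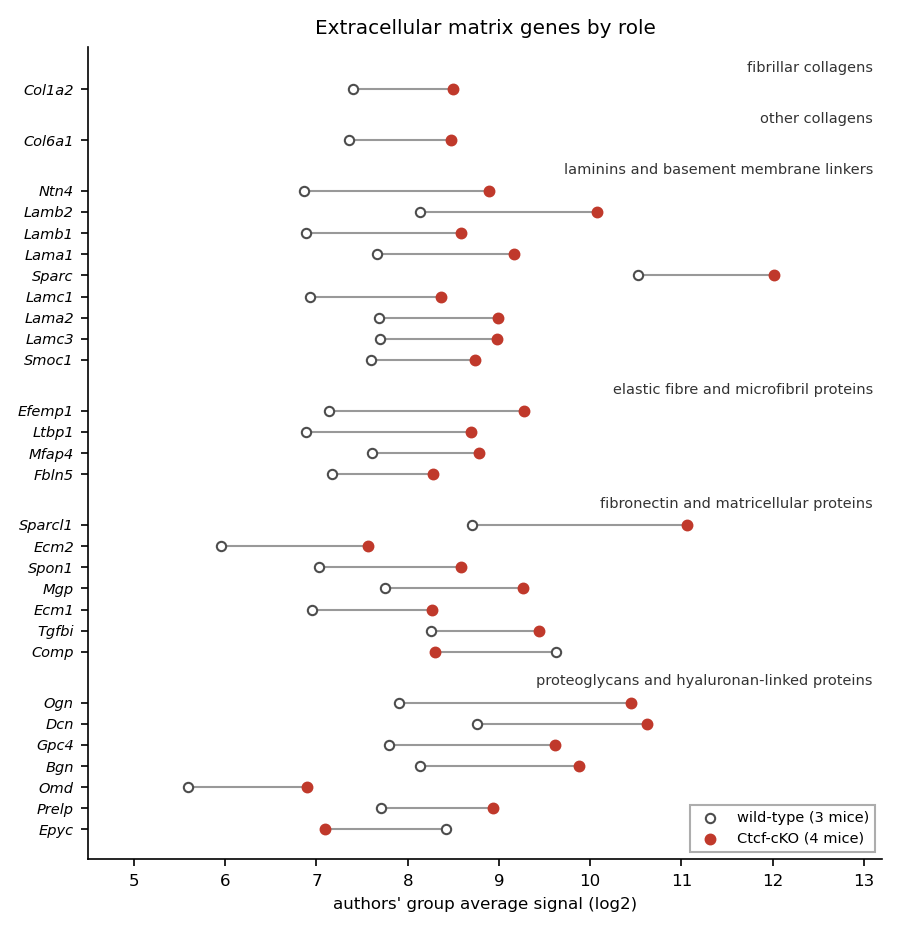
Authors' average log2 signal in wild-type (open circles) and *Ctcf*-cKO (red circles) for matrix genes grouped by role, with a line joining the averages of a gene and no error bars because single arrays were not given. The *Ctcf*-cKO average lies to the right for all but *Comp* and *Epyc*.

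Some genes of the group encode growth factors that the matrix stores or cells present, or their receptors, and those given here were named after their values had been seen. *Tgfb3* averaged 7.08 in wild-type against 8.76 in *Ctcf*-cKO and *Tgfb1* 7.60 and 8.70, differences of 1.68 and 1.10. Their co-receptor betaglycan, *Tgfbr3*, averaged 7.85 and 9.74, a difference of 1.89. *Kitl*, the ligand of the receptor KIT that Sertoli cells present to spermatogonia, averaged 7.42 and 9.50, a difference of 2.08. The molecular function growth factor activity was given to 5 higher and 0 lower genes of the group, and to 15 higher and 0 lower coding genes of the table.

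Receptors that bind the matrix followed. Integrin genes with a row were 5 of 28, all higher, and 3 of these carried the terms of the rule. *Itga6*, the alpha 6 subunit of laminin receptors, averaged 6.80 in wild-type against 8.67 in *Ctcf*-cKO, a difference of 1.87. *Itga9* averaged 6.63 and 7.78 and *Itgb8*, whose protein activates latent TGF-beta, 5.62 and 6.75. *Itgav* and *Itgb1*, which encode the partners of many integrin subunits but lacked the terms, were both higher by 1.42. Among the adaptors that tie integrins to actin at focal adhesions, 9 of 32 listed genes had a row, 8 higher and 1 lower. *Fermt2* (kindlin-2), *Vcl* (vinculin) and *Tln1* (talin-1) were higher by 1.43, 1.30 and 1.04. *Parvg*, a parvin gene, averaged 8.17 in wild-type against 7.13 in *Ctcf*-cKO, and *Lpxn*, which encodes a protein of the paxillin family and is on none of the role lists, 8.06 and 6.36, a difference of -1.70.

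Junctions of the blood-testis barrier were represented by 6 of 39 listed genes, all higher, by 1.12 to 1.85. *Cldn11* encodes claudin-11, the strand-forming protein of Sertoli cell tight junctions, and averaged 9.50 in wild-type against 11.35 in *Ctcf*-cKO, a difference of 1.85. The junctional adhesion molecule genes *F11r* (8.14 and 9.80) and *Jam2* (8.31 and 9.72) were higher by 1.66 and 1.41, and *Ctnna1*, the alpha-catenin that links cadherins to actin, by 1.38. *Ocln* and *Cgn*, which encode occludin and cingulin and did not carry the terms of the rule, were higher by 1.12 and 1.14. Of 59 listed cadherins and protocadherins 4 had a row. The giant cadherin gene *Fat1* averaged 8.28 and 10.25, a difference of 1.97, *Cdhr5* 6.80 and 8.82, a difference of 2.02, and *Cdh5*, the cadherin of endothelial cells, 7.21 and 8.34. *Cdhr4* was lower, at 8.56 and 7.46. *Pcdhac1* was also lower, with a difference of -1.49, but its row lists 15 genes of the protocadherin alpha cluster, which share exons, so that it is uncertain which of them it measured.

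Immunoglobulin-like adhesion genes were mostly higher, with 2 exceptions. Of 52 listed, 10 had a row, 8 higher and 2 lower, and 6 of the 10 were in the group. *Alcam* averaged 6.31 in wild-type against 7.86 in *Ctcf*-cKO and *Pvr*, the poliovirus receptor, 6.67 and 8.20, differences of 1.55 and 1.53. *Boc* and *Robo1*, receptors known from axon guidance, were higher by 1.23 and 1.05. *Vcam1*, higher by 2.26, and *Cd47*, higher by 1.94, had been left out for an immune term. Those lower were *Cntn6*, a contactin, at 6.47 and 5.32, and *Pvrl3*, at 9.65 and 8.50. *Pvrl3* encodes nectin-3, which spermatids use to attach to nectin-2 of Sertoli cells. In the list of neurexins, neuroligins and latrophilins, 3 of 40 had a row. *Lphn1*, an adhesion receptor of the latrophilin family, averaged 8.51 and 10.37, whereas *Cntnap5b*, a neurexin relative, averaged 8.10 and 6.86. Of 21 listed selectins, sialomucins and lectins 2 had a row, both higher and both without membership.

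Genes of the gamete adhesion list were those in which direction turned. This list is wider than the proteins with which gametes bind and fuse, since it also holds the chaperone genes *Clgn* and *Calr3*. Of 36 listed genes 25 had a row and all 25 were lower, with differences from -1.75 to -1.02 and a median of -1.36, although only 3 of them carried the terms of the rule. *Spam1*, the sperm hyaluronidase PH-20, averaged 9.01 in wild-type against 7.37 in *Ctcf*-cKO, a difference of -1.64. *Spaca4*, which encodes an acrosomal membrane protein, averaged 9.74 and 8.53, and *Zan*, the zona pellucida-binding zonadhesin, 8.21 and 7.18. *Tcam1*, a testis adhesion molecule that is on none of the role lists, averaged 9.46 and 8.16, a difference of -1.30.

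**Figure D3:**
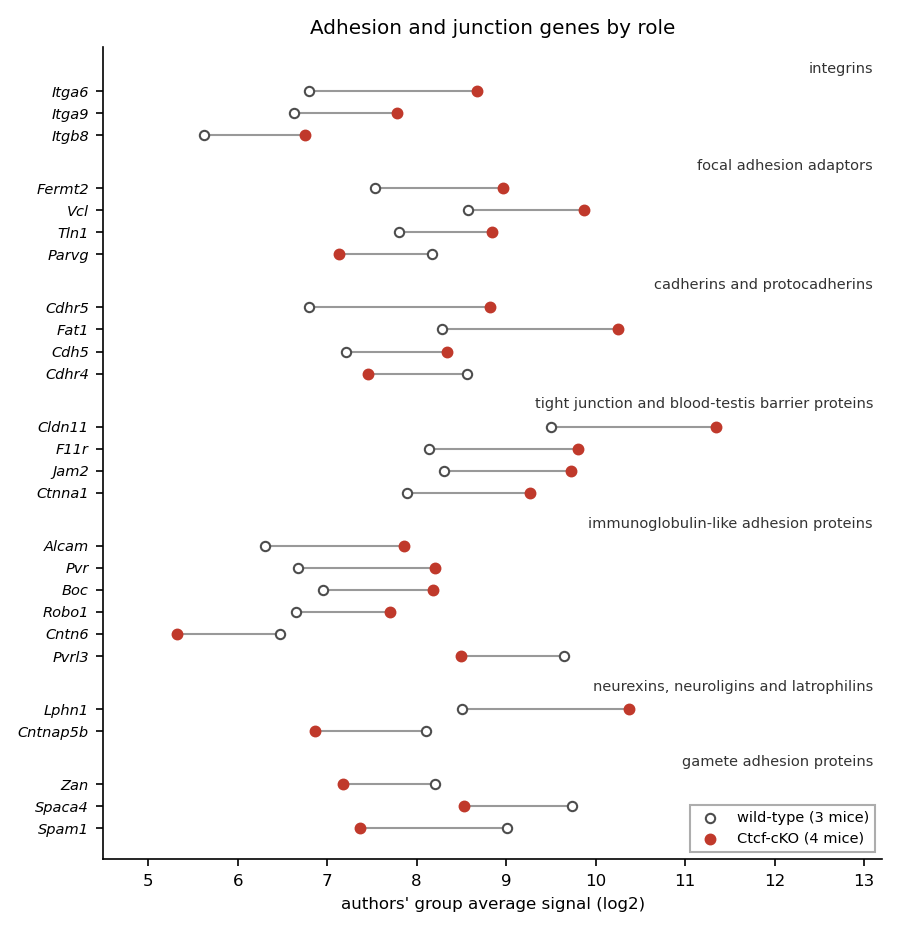
Authors' average log2 signal in wild-type (open circles) and *Ctcf*-cKO (red circles) for adhesion and junction genes grouped by role, without error bars because single arrays were not given. Integrin and tight junction genes lie to the right in *Ctcf*-cKO and gamete adhesion genes to the left, with both directions among the other lists.

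The role lists held 55 of the 114 genes, and the other 59 were 49 higher and 10 lower genes. *Scara3*, a scavenger receptor with a collagen-like stretch, averaged 6.40 in wild-type against 8.52 in *Ctcf*-cKO, a difference of 2.12. *Atp1b2*, a sodium pump subunit that also acts in cell adhesion, averaged 7.72 and 9.76, a difference of 2.04. *Olfml2b* (7.02 and 8.99), *Ppap2b* (7.90 and 9.85) and *Gpr56* (8.54 and 10.41) were higher by 1.97, 1.95 and 1.87, and the last of these encodes an adhesion receptor. *Mfge8*, which encodes a bridging protein between phosphatidylserine on dying cells and integrins, averaged 8.53 and 10.38, a difference of 1.85. The members of the group nearest to the authors' limit on fold were *Arhgef17*, *Ccdc80* and *Srpx2* with 1.00, 1.01 and 1.01.

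In both directions, some genes carried a matrix or adhesion term although their proteins are known for other work. Higher ones include the hydroxysteroid dehydrogenase gene *Hsd17b12*, the transferrin gene *Trf* and the cystatin C gene *Cst3*, by 1.78, 1.60 and 1.17. Several lower genes were of this kind too. *Apoh*, a plasma glycoprotein annotated to the extracellular matrix, had the largest negative difference, from 8.81 in wild-type to 7.10 in *Ctcf*-cKO. *Efhb* (9.57 and 8.03) and *Kcnip4* (7.05 and 5.98) encode calcium-binding EF-hand proteins. *Ift74* (10.17 and 9.10) and *Kifap3* (10.81 and 9.70) encode parts of the transport machinery of cilia and flagella, and *Pde3b* (9.30 and 7.82) a phosphodiesterase of cyclic AMP. *Ift74*, *Kifap3* and *Pde3b* were included through terms for the regulation of adhesion. Without genes that had only such regulation terms, 91 genes were higher and 17 lower. *Ceacam2*, a homophilic adhesion molecule, averaged 8.69 and 7.65.

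**Figure D4:**
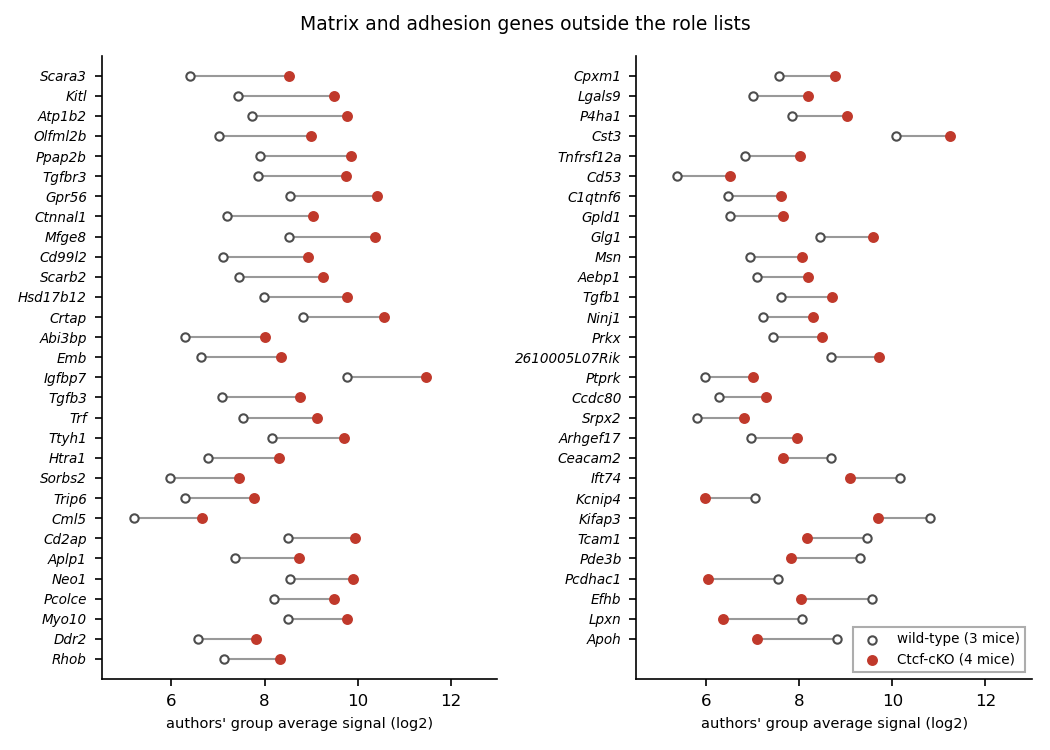
Authors' average log2 signal in wild-type (open circles) and *Ctcf*-cKO (red circles) for the 59 matrix and adhesion genes that are on none of the role lists, ordered from the largest positive to the largest negative difference and without error bars. The 49 higher genes run from *Scara3* to *Arhgef17*, and the 10 lower genes fill the end of the right column from *Ceacam2* to *Apoh*.

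Across all role lists, 94 of 477 listed genes had a row, 62 higher and 32 lower, and 25 of the 32 lower ones were gamete adhesion genes. These counts include 39 genes outside the group. The genes taken out by the rule would not have changed the direction, since all 10 with an immune or inflammatory term were higher, with a median of 1.54, and of 13 *Adam*, *Mmp*, *Timp* or *Serpin* genes 12 were higher and 1 was lower.

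**Figure D5:**
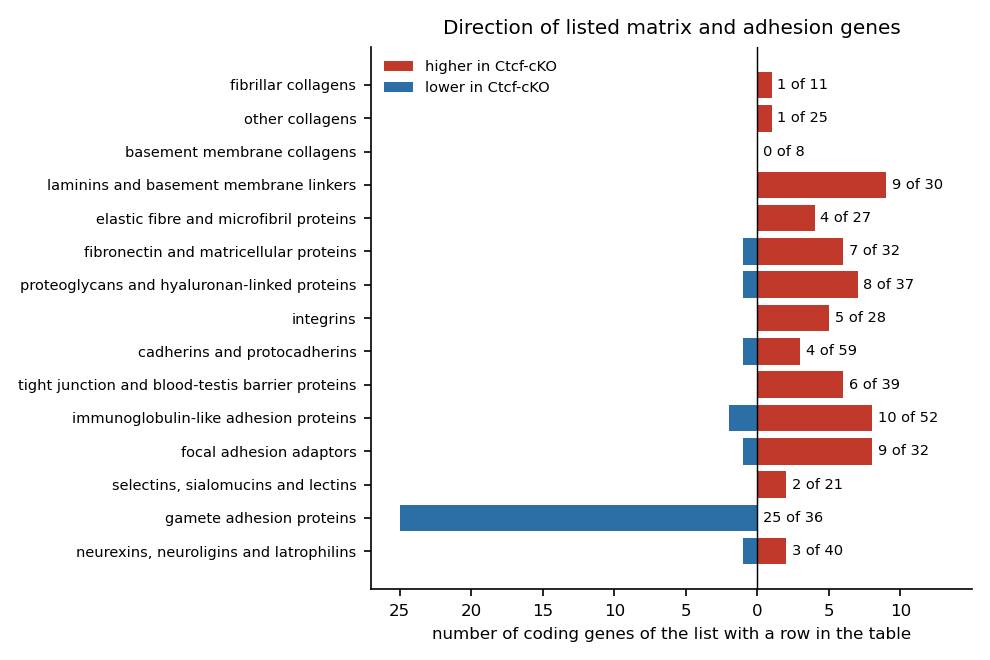
Number of listed genes with a row in the deposited table for each role list, with bars to the right for genes higher in *Ctcf*-cKO and to the left for lower ones, and the number with a row of all listed genes beside each bar. The 25 gamete adhesion genes are all on the left, and the 9 laminin and linker genes are all on the right.

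Annotations that the rule did not use were counted in both directions, and 82.5% of the whole group was higher. Annotation to the extracellular region was carried by 46 higher and 3 lower genes of the group, against 182 higher and 62 lower coding genes of the table, although this term is close in meaning to the matrix terms of the rule. Heparin binding was given to 8 higher and 2 lower, collagen binding to 8 higher and 1 lower and integrin binding to 6 higher and 0 lower genes, and none of these was set apart from the share of the group by a test. Over all coding genes the counts were 13 and 3 for heparin binding, 14 and 1 for collagen binding and 16 and 4 for integrin binding. Calcium ion binding was given to 12 higher and 5 lower genes of the group and 75 and 58 over the table. Signal strength differed little between the directions. The brighter of the 2 averages had a median of 8.83 for the higher and 8.75 for the lower genes, and 0 of the 114 were under 6 in both genotypes.

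By position in mm10, 15 pairs of the 114 genes lay within 500 kb of each other, and 9 of these pairs had the same direction. Because 82.5% of the group was higher, most pairs would share a direction wherever they lay, so this count shows no local agreement. The pairs were formed by 19 genes, and those among *Ninj1*, *Ecm2*, *Omd* and *Ogn* are not separate observations. The closest were the small leucine-rich protein genes on chromosome 13, with *Ecm2* (chr13:49504810-49532789), *Omd* (chr13:49582747-49592611) and *Ogn* (chr13:49608071-49624500) all on the higher side and separated by 50 kb and 15.5 kb. The related genes *Dcn* (chr10:97479500-97518162) and *Epyc* (chr10:97644068-97682454) were 126 kb apart and had opposite directions, 1.86 and -1.33. *Trip6*, which encodes an adaptor of focal adhesions, and the sperm gene *Zan* were 64.4 kb apart, with 1.47 and -1.03.

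Promoters within 1000 bases of the transcript cluster's 5′ end were found in RefSeq for 67 of the 94 higher and 12 of the 20 lower genes. Motifs were searched on both strands of the 250 bases before the start, as in the sequences printed above. The median GC content was 62% for the higher and 51.8% for the lower genes of the group, against 59.6% and 51.6% for the higher and lower coding genes of the table and 52.4% for all 32851 RefSeq promoters. The GC box GGGCGG was present in 42 higher (62.7%) and 2 lower (16.7%) promoters, against 61.2% and 28.9% for the table and 32.7% for RefSeq. AGGNGGC, the inner part of the motif that CTCF binds, was present in 28 higher (41.8%) and 3 lower (25%) promoters, against 37.8% and 20.5% for the table and 25% for RefSeq. For both motifs the share among the 67 higher promoters was closer to that of all higher genes of the table than to that of RefSeq. CCAAT was found in 32.8% of the higher and 41.7% of the lower promoters (RefSeq 33.8%), TATAAA in 7.46% and 0% (RefSeq 12.4%) and the AP-1 motif TGANTCA in 8.96% and 8.33% (RefSeq 6.75%). These counts rest on 12 lower promoters, and a match of letters does not show that a factor binds there.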

How the data were processed

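Testis RNA of wild-type (3) and *Ctcf*-cKO (4) animals was hybridized by the authors to mouse transcriptome arrays (MTA 1.0), 1 array per mouse. Submitters' processing notes name RMA, Affymetrix Expression Console 1.4.1, Transcriptome Analysis Console 3.0 and mm10. The deposited table of 7580 transcript clusters holds the authors' bi-weight average log2 signals per genotype (written with decimal commas) and the authors' own linear fold changes, p-values and adjusted p-values, which were not used. It was filtered by the authors on a linear fold of 2 and a p of 0.05, so that the share of higher genes and the medians describe changed transcript clusters and not the array. RMA sets all arrays to 1 distribution of signals, so a change in the total RNA of the tissue is not seen.

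Group averages were subtracted (*Ctcf*-cKO minus wild-type), coding rows with a symbol (4084) were reduced to 3997 genes by the first symbol, keeping the row with the highest average, and counts and medians were taken with Python 3.11.15, pandas 2.3.3 and numpy 2.4.6. Counting was tested on simulated tables. Figures were drawn with matplotlib 3.10.9. No test between genotypes was made, because single-array values were not analysed here. Replicates are separate mice per the labels. The genes, role lists, marker lists and motifs were chosen with earlier results of these data known. Named by rule were the 15 largest differences in each direction (with ties), genes of the group on role lists, the 3 nearest to the limit in each direction and marker genes with a row. Other genes were named after their values had been seen. Promoters come from RefSeq (GRCm38.p6), and the CTCF motif was added after the values had been seen. Proteins were not analysed here, and 1 gene of the marker lists is not reported here. Alternatives were the fold limit, a signal limit, centring, gene symbols, transcript class, the row kept and the terms.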

Additional observations from a re-analysis of the deposited data

How the results depend on the processing

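The group averages carry no spread and the number of arrays limits each of them. No paired analysis was possible because the table gives the authors' averages and 0 columns of single mice, and for the same reason no mouse was left out.

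A signal of at least 6 on the log2 scale in either genotype and the row with the largest difference left 94 higher and 20 lower genes. With a linear fold of 3 there were 35 higher and 3 lower genes and a median of 1.85. The class Coding alone gave 27 and 9 genes with a median of 1.31. Component terms alone gave 47 and 5 (median 1.46), cell adhesion terms alone 61 and 16 (median 1.23), and all symbols of a row 98 and 34 (median 1.23). The median was 1.32 with no exclusions (116 and 21 genes). Chosen after seeing the data, leaving out genes of the marker lists gave a median of 1.29 and leaving out regulation terms 1.31. The share of higher genes ran from 74.2% with all symbols to 92.1% with a fold of 3, apart from centring. With all symbols, the lower *Pcdhac1* row counts once for each protocadherin gene it lists, and these are not separate measurements.

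Centring on the median of all rows (-1.15) left 94 higher and 0 lower genes past a linear fold of 2, with a median of 2.59, because that median is itself past the limit. The median of selected rows is not that of the array. By sign 11 genes were then below 0, and 7 lower genes were above it, *Zan* at 0.12, *Ceacam2* and *Parvg* at 0.11, *Ift74* and *Kcnip4* at 0.08, *Cdhr4* at 0.05 and *Kifap3* at 0.04. A shift of under 1.00 common to all genes turns no direction. The lower counts of the fibronectin and matricellular, proteoglycan, cadherin, immunoglobulin-like, focal adhesion, gamete adhesion and neurexin lists were then all 0.

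With a fold of 3, the higher genes of the group were 0 of 1 fibrillar collagen, 0 of 1 other collagen and 3 of 9 laminins and linkers. They were also 2 of 4 elastic fibre genes, 2 of 6 matricellular genes, 4 of 6 proteoglycan genes and 1 of 3 integrins. Cadherins had 2 of 3, tight junction genes 2 of 4 and the neurexin list 1 of 1. Immunoglobulin-like genes had 0 of 4 and focal adhesion genes 0 of 3. Of the lower genes, 1 of 3 gamete adhesion genes passed it and 0 of the matricellular, proteoglycan, cadherin, immunoglobulin-like, focal adhesion and neurexin genes.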
